A study of Mus musculus with 16 samples.

Results

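The baseline of the mouse tail disc was described from the 7 intact libraries of a bulk RNA sequencing series of 16, each library made from 1 mouse. They are the libraries that the titles call intact, 3 from wild-type mice and 4 from Adam8EQ mutants, and they were described as 1 set, ranked by their mean level, without regard to any difference between them. The other 9 libraries, 4 wild type and 5 mutant, came from injured discs. They serve as a comparison for the class shares, for single genes that weigh in them and for S100b. The series title sets the Adam8 mutant beside DBA, an inbred mouse strain, and the labels give the mutants as Adam8EQ, the wild type through the titles, and no age or sex. From each tail the 4 discs between the coccygeal vertebrae Co3 and Co7 were shaved off the cartilaginous endplate and pooled, so that nucleus pulposus, annulus fibrosus and any adhering tissue are mixed. In such bulk RNA, fewer cells of a type and less RNA per cell cannot be told apart.

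An intervertebral disc has a gel-like nucleus pulposus, whose cells descend from the embryonic notochord, inside a ring of lamellar annulus fibrosus. Its cells are few and sit in a large extracellular matrix of aggrecan, which holds water, and of collagens, which hold the aggrecan in place. The tissue has almost no blood vessels, and its cells are known for glycolysis and for a constitutive response to low oxygen.

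All values are TPM (transcript abundance scaled to a fixed total after division by gene length), so that levels of different genes can be compared. The depth implied by the values ran from 10219756 to 13755889 reads, and 17705 of 49315 genes were at 1 TPM or more in all 7 libraries. The libraries resembled each other closely, with a median correlation to the other 6, across genes on the log2(TPM + 1) scale, of 0.971 to 0.974. Adam8, the metalloprotease that the mutation concerns, was at 0.956 to 2.97 TPM in the intact libraries (median 1.24), which is near the detection limit.

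The most abundant single transcript was Rn7sk, the small nuclear RNA that holds the elongation factor P-TEFb inactive. It lay between 31798 and 46931 TPM, with a median of 39095, and took more molecules than any protein-coding gene in each library. Its gene is at chr9:78175303-78175633 on the minus strand of GRCm38, is 331 bases long and overlaps no other annotated gene. The first 300 bases are shown because this 1 transcript enters the total behind every share given below.

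Rn7sk: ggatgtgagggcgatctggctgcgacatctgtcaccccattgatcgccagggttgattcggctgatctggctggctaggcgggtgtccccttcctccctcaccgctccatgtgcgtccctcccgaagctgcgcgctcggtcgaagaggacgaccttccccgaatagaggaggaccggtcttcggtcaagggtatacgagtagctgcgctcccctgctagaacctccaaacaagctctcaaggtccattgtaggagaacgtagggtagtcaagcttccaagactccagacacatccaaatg

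A second small gene shows where a level cannot be assigned. Gm23935 is a 57-base gene of the miRNA biotype at chr16:11144125-11144181, in an intron of Zc3h7a on the opposite strand. Its level spread from 2354 to 25691 TPM, a coefficient of variation (CV, the SD over the mean) of 90.7%, and intact mutant 1 was highest. Gm24245 and Gm24270 have the identical sequence elsewhere in the genome, and they were listed at 0 and at a mean of 50.3 TPM. The value of Gm23935 is therefore uncertain between the copies.

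Gm23935: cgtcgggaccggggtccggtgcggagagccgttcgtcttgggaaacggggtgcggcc

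Non-coding RNA held 17.2% ± 0.69 (SD, n = 7) of all TPM. Small RNA biotypes made up 9.01% and long ones 8.21%, although small RNAs accounted for only 0.477% of the implied reads, because TPM divides by length. By mean, Gm26917 came after Rn7sk, at a median of 20962 TPM, then Malat1, a long RNA of nuclear speckles (10290 TPM), Gm23935, and Rpph1, the RNA subunit of RNase P (6185 TPM). Gm42418 was sixth at 4793 TPM. It lies next to Gm26917 on chromosome 17 and overlaps an annotated rRNA gene on the opposite strand over all its 1831 bases. Gm26917 and Gm42418 were both highest in intact mutant 1 and lowest in intact mutant 2, and both count in the non-coding share. Whether ribosomal RNA enters their values was not tested. Rmrp, the RNA subunit of RNase MRP, was at 1288 TPM and Neat1, the long RNA of paraspeckles, at 598 TPM. The small Cajal body RNAs Gm22009 and Scarna2 were at medians of 536 and 509 TPM.

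Among the 15 highest non-coding genes 3 carry names of miRNA genes. The libraries measured fragments of longer RNA, so the values belong to the annotated hairpin genes and not to mature miRNAs. Mir5125 (median 1003 TPM) lies in an intron of Srrm2 on the same strand, and Srrm2 itself was at a mean of 537 TPM. Mir99a (477 TPM) lies in an intron of Mir99ahg. Mir27a (340 TPM) was uneven, at 909 in intact wild-type mouse 1, 972 and 622 in intact mutants 1 and 2, and 182 to 340 in the other 4. Gm26532 and Gm37352, non-coding genes near it on chromosome 8, were also highest in these 3 libraries, at medians of 385 and 293 TPM. The mature sequences, from RefSeq on GRCm38.p6, are shown with the seed (bases 2 to 8) in capitals to identify the genes; the 3 seeds differ.

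miR-5125: uCUGCCUGggauuuccuugu
miR-99a-5p: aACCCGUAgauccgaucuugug
miR-27a-3p: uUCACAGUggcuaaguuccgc

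**Figure D1:**
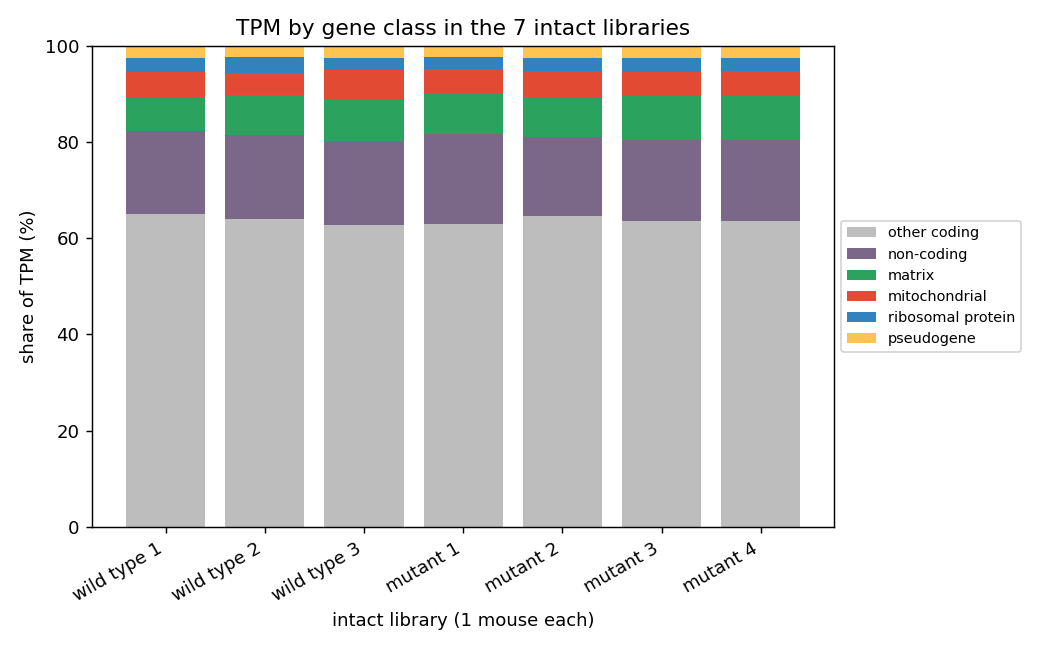
Share of TPM (%) by gene class in each of the 7 intact libraries, 1 stacked bar per mouse. Coding genes outside the named classes hold 62.8% to 65.1%, and the matrix share is lowest, at 7.08%, in wild type 1.

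Matrix genes, that is 177 collagens, proteoglycans and matrix glycoproteins, held 8.50% ± 0.70 (SD, n = 7) of TPM. Intact wild-type mouse 1 was lowest at 7.08%, and the other 6 lay between 8.40% and 9.21%. Matrix glycoproteins held 3.96% and the proteoglycan list 3.68%, while collagens held 0.862%. That list also takes in link proteins and relatives such as the leucine-rich protein Chad, which alone held 1.68% of TPM. Of the 30 highest nuclear protein-coding genes, 15 were in this class, against 124 of the 12526 nuclear coding genes at 1 TPM or more in all 7 libraries (0.990%).

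**Figure D2:**
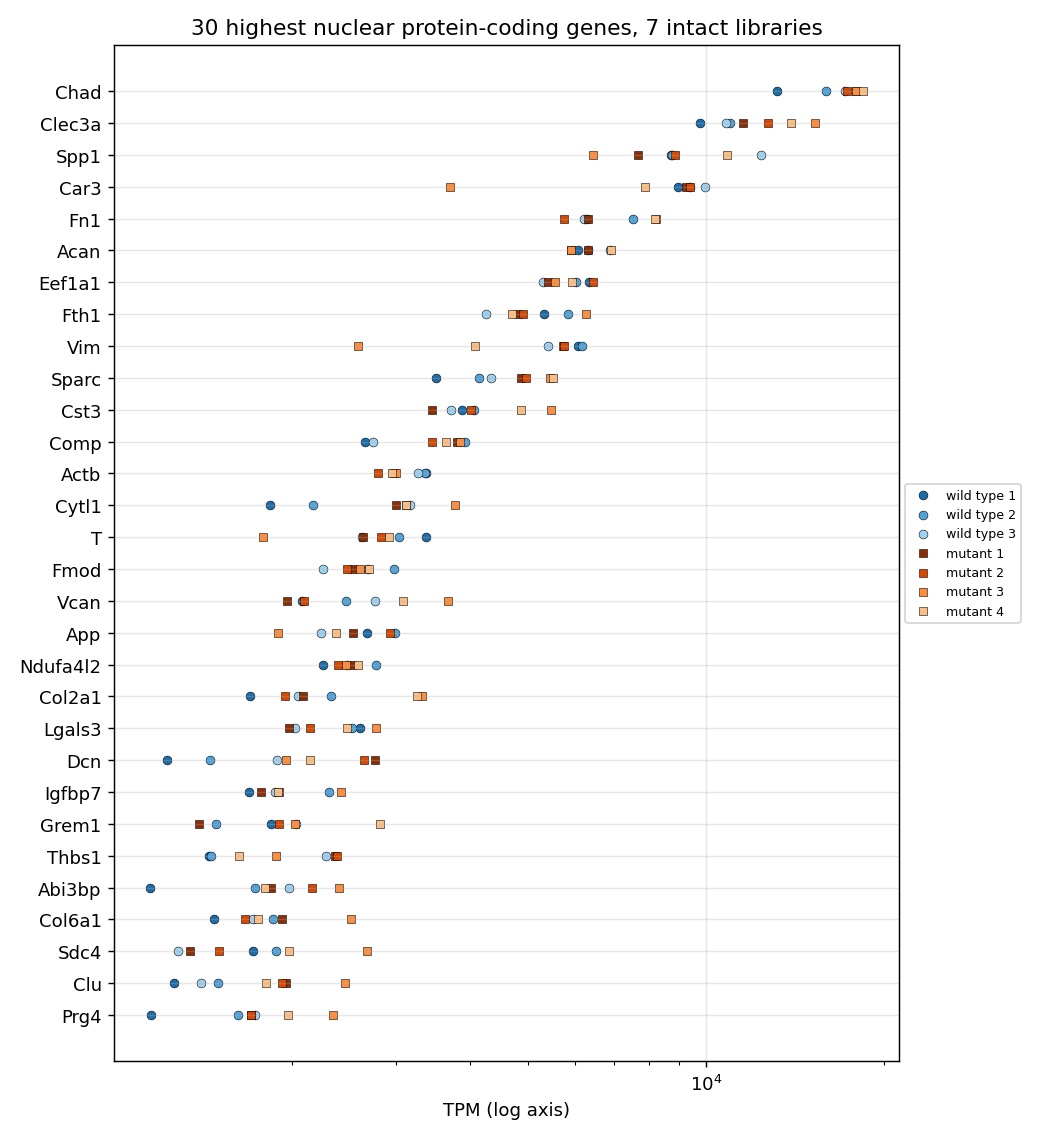
TPM (log axis) of the 30 highest nuclear protein-coding genes, 1 point per intact library, circles for wild type and squares for mutants. Chad is above every other gene shown in all 7 libraries, and mutant 3 stands apart to the left for Car3 and Vim.

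Among proteoglycans and their relatives, Chad and Acan were first and sixth of the nuclear coding genes by mean. Chad (chondroadherin, chr11:94565047-94569127), a small leucine-rich cartilage protein that binds collagen and integrins, was the highest nuclear coding gene in each library, at 13184 to 18411 TPM with a median of 17291. Acan, the core protein of aggrecan, was far steadier, at 5926 to 6913 TPM with a CV of 6.55%. Fmod (fibromodulin, 2608 TPM), Vcan (versican, 2470 TPM) and Dcn (decorin, 1951 TPM), given as medians, followed, of which Dcn spread from 1233 in intact wild-type mouse 1 to 2763 in intact mutant 1. Prg4 (lubricin) was at 1158 to 2343 TPM. Of the 31 genes of the proteoglycan list 19 reached 1 TPM in all 7 libraries, and Spock3 was at 0 in all. That share is near the 57.5% of all 21798 nuclear coding genes at this level, to be set beside the list counts below as well.

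Among the matrix glycoproteins, Spp1 (osteopontin) ran from 6446 to 12388 TPM and was highest in intact wild-type mouse 3. Fn1 (fibronectin, median 6309 TPM), Sparc (osteonectin, 4879 TPM) and Comp (cartilage oligomeric matrix protein, 3644 TPM) came next. Igfbp7 and Thbs1 completed the 6 highest, with medians of 1896 and 1879 TPM. In the class 74 of 102 genes reached 1 TPM in all libraries, and Igfbp1, Igfbp2 and Bglap2 were at 0 in every one.

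Collagens were moderate as mRNA. Col2a1, the fibrillar collagen of cartilage and nucleus, was at 1697 to 3316 TPM, with the 2 highest values in intact mutants 3 and 4. The type VI chains that surround cells followed, Col6a1 at a median of 1753, Col6a2 at 819 and Col6a3 at 562 TPM. Col1a1, the main chain of annulus and bone, was at 589 to 1296 TPM, highest in intact mutant 1. In all 31 of 44 collagen genes reached 1 TPM in each library, and Col6a4 was at 0 in all. Col15a1 was the sixth by mean, at a median of 353 TPM.

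Of the small secreted cartilage proteins, Clec3a and Cytl1 ranked above every collagen by mean and the others below Col2a1. Clec3a, a cartilage lectin, was the second highest nuclear coding gene by mean at 9758 to 15287 TPM, and Cytl1 was at 1839 to 3771 TPM. Both were lowest in intact wild-type mouse 1 and highest in intact mutant 3. Scrg1, Cnmd (chondromodulin, an inhibitor of vessel growth), Chil1 and Ucma followed with medians of 684, 599, 190 and 216 TPM, and Chil1 reached 612 TPM in intact mutant 3. All 8 of these genes found in the table were at 1 TPM or more in every library.

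The rest of the 30 highest coding genes, apart from Abi3bp of the matrix class, had other roles. Eef1a1, a translation elongation factor, was at a median of 5931 TPM, Cst3, the protease inhibitor cystatin C, at 4004 and Actb, cytoplasmic actin, at 3001. App, the amyloid precursor protein, was at 2538 TPM, Lgals3, the lectin galectin-3, at 2476 and Grem1, an antagonist of bone morphogenetic proteins, at 1903. Abi3bp, a matrix protein, was at 1846 TPM, the chaperone Clu (clusterin) at 1806 and Sdc4, a cell surface heparan sulfate proteoglycan, at 1722. Of these 9 Actb and Eef1a1 were the steadiest, with CVs of 7.30% and 7.69%.

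Ranks close to each other should not be read as an order. Of the 30 neighbouring pairs formed by the 31 highest coding genes, 28 had a mean difference no larger than its SD over the 7 libraries. Only Chad above Clec3a kept its order in all 7, by 4693 ± 1390 TPM.

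Genes that make and turn over the matrix were expressed broadly. Timp2 and Htra1, an inhibitor of metalloproteases and a serine protease, led the turnover list with medians of 1419 and 1370 TPM, and 27 of its 30 genes reached 1 TPM in all libraries. For glycosaminoglycan synthesis it was 24 of 25, led by Xylt1, which adds the first sugar of the chain (median 577 TPM). The secretory pathway list was complete, at 16 of 16, with P4hb, a subunit of the collagen prolyl hydroxylase, at 642 TPM. By comparison 57.5% of all 21798 nuclear coding genes reached this level; the lists were composed for this tissue.

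Energy metabolism genes were detected throughout. All 17 glycolysis genes were at 1 TPM or more in each library, led by Gapdh (median 1268 TPM), Pkm (836 TPM) and Aldoa (817 TPM), and the glucose transporter Slc2a1 was at 550 to 919 TPM. Ndufa4l2, a hypoxia-induced mitochondrial protein, stood at rank 19 of the coding genes with a CV of only 6.35%. The hypoxia list was led by Bnip3 (565 TPM), Ndrg1 (326 TPM) and Hif1a (289 TPM), and 15 of its 16 genes reached 1 TPM in all libraries. Fth1, the iron-storing ferritin heavy chain, was at 4248 to 6265 TPM.

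Mitochondrially encoded genes held 5.24% ± 0.57 (SD, n = 7) of TPM, from 4.53% in intact wild-type mouse 2 to 6.35% in intact wild-type mouse 3. Of the 13 coding genes 7 were above 1000 TPM, led by mt-Co1 (median 16697), mt-Nd1 (9536) and mt-Cytb (6365). The other 6 were near 0, with medians of 5.51 TPM for mt-Co2, 5.29 for mt-Nd4l, 4.49 for mt-Atp6, 3.08 for mt-Atp8, 2.37 for mt-Co3 and 0 for mt-Nd3. Subunits of the same complexes thus differed by more than 1000 TPM. For 5 of these 6, 98.0% to 100% of all 50-base stretches also occur in an annotated pseudogene on chromosome 1 (for mt-Co2 100%, in Gm28661, chr1:24614885-24615565). For mt-Nd1, mt-Cytb and mt-Nd6 no such stretch was found, for mt-Co1 it was 51.1% and for mt-Nd4 62.2%. No such copy was found for mt-Atp8 either, but only annotated transcripts were searched, so a copy in unannotated sequence could not be seen. The pseudogenes themselves were listed at means of 5.99 to 49.6 TPM. How the authors' counting treated reads that match 2 places is not given in the sources used here. The low values of these 6 genes, mt-Atp8 included, and the mitochondrial share are therefore uncertain. The mitochondrial class held 35 genes, 13 coding and 22 tRNA, and no mitochondrial rRNA. The share given is therefore one without the mitochondrial rRNAs.

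Ribosomal protein genes (86) held 2.83% ± 0.28 (SD, n = 7) of TPM, from 2.49% to 3.32%. These genes have many processed pseudogenes, so their values share the same uncertainty.

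Against the injured discs, the ribosomal protein share was 0.640 percentage points higher in the intact ones (2.83% ± 0.28, n = 7, against 2.19% ± 0.39, n = 9; exact two-sided permutation p = 0.00175, Benjamini-Hochberg adjusted over 8 share tests p = 0.0140), and 5 of the 7 intact libraries lay above all 9 injured ones. The mitochondrial share was 1.28 points lower (5.24% ± 0.57 against 6.52% ± 0.99; exact permutation p = 0.00927, adjusted p = 0.0371), and 3 intact libraries lay below all injured ones. Without each library in turn the difference was between -1.46 and -1.13 points, but its call was not kept throughout. Leaving out any 1 of 12, namely intact mutants 1 to 4, intact wild-type mice 1 and 2, injured mutants 1 and 2 or injured wild-type mice 1 to 4, gave adjusted p-values from the exact permutation test of 0.0543 to 0.0719. The matrix share did not pass (8.50% ± 0.70 against 8.55% ± 1.96, exact permutation adjusted p = 0.946), nor did the non-coding share (17.2% ± 0.69 against 17.3% ± 1.01, exact permutation adjusted p = 0.946). Parts of the matrix class went both ways and were not tested. Collagens held 0.862% in intact and 1.43% in injured libraries, matrix glycoproteins 3.96% and 4.37%, and the proteoglycan list 3.68% and 2.75%. Single genes weighed heavily in the latter 2 parts. Chad, of the proteoglycan list, had a mean of 16833 TPM in intact and 3953 in injured libraries, while Dcn was at 2012 and 5438. Fn1, of the matrix glycoproteins, was at 6938 and 20657 TPM, while Spp1 was at 9099 and 5972. The shares without these genes were not computed. By exon-length weighting the matrix difference was -3.55 points (exact permutation p = 0.0175, adjusted p = 0.0671).

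Between genotypes, 4 intact mutants against 3 intact wild-type mice cannot give an exact permutation p under 0.0571, and no share passed. The matrix share was 8.85% ± 0.39 in mutants and 8.03% ± 0.82 in wild type (exact permutation p = 0.171, adjusted p = 0.457). The wild-type libraries also carry another name prefix than the mutants, and naming and genotype cannot be told apart.

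**Figure D3:**
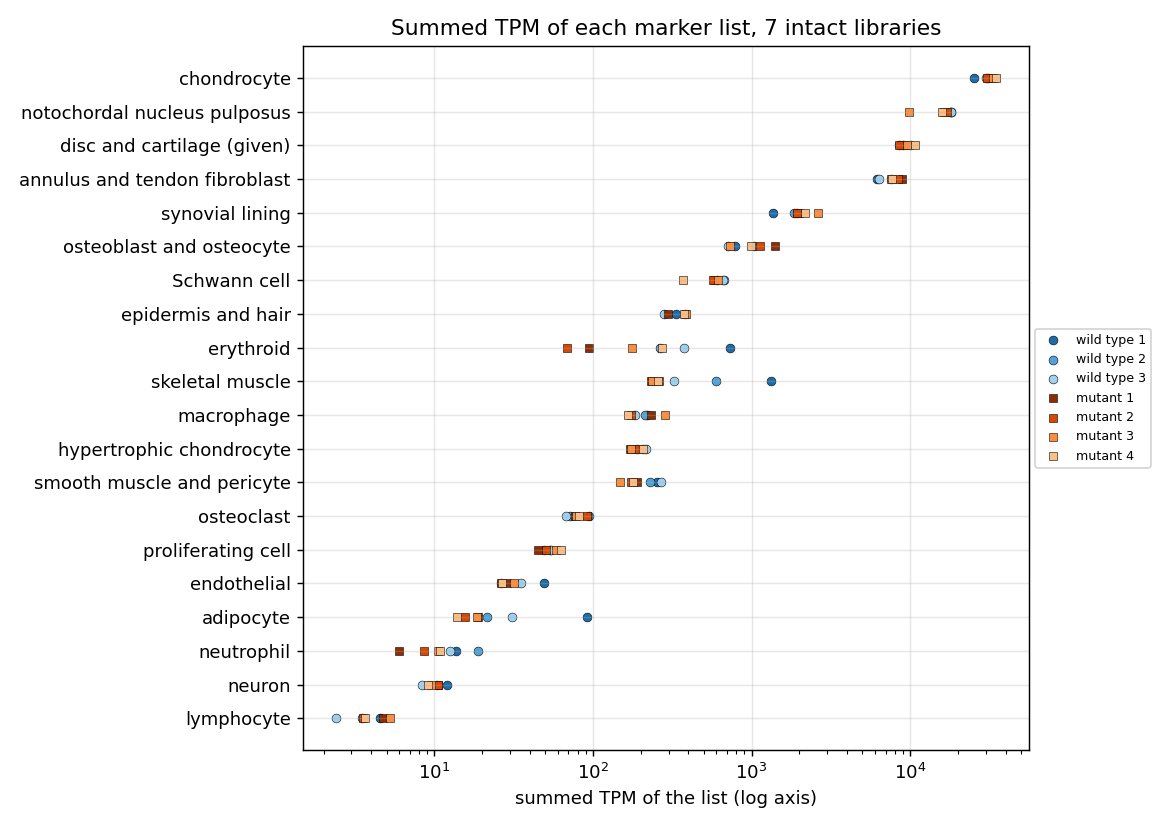
Summed TPM (log axis) of each list of cell type markers, 1 point per intact library, circles for wild type and squares for mutants. Chondrocyte, notochordal, disc (Acan, Col2a1 and Krt19) and annulus lists are highest, and lymphocyte and neuron lists lowest. Single genes, Chad and Car3, made up much of the chondrocyte and notochordal sums. Mutant 3 (notochordal) and wild type 1 (skeletal muscle, adipocyte) stand apart.

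The marker genes Acan, Col2a1 and Krt19, which define the disc here, were all abundant. Krt19, a keratin of notochordal nucleus cells, was at 337 to 787 TPM. The chondrocyte list summed to 25336 to 34740 TPM and 12 of its 15 genes found reached 1 TPM in all libraries. Chad had a mean of 16833 TPM within its mean sum of 31080. Matn1 and Epyc, other cartilage matrix genes, were at a mean of 0.0289 and 0.423 TPM. The annulus and tendon list summed to 6222 to 8879 TPM, with the tendon regulator Mkx at 161 and Scx at 26.6 TPM (medians). Fmod and Dcn had means of 2603 and 2012 TPM within its mean sum of 7518.

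T, the notochordal transcription factor Brachyury (chr17:8434423-8442496), was the highest of 32 listed genes, disc and cartilage transcription factors and the secreted growth factor Gdf5, and stood at rank 15 of all nuclear coding genes. It was at 3370, 3030 and 2623 TPM in the wild-type mice and at 2634, 2828, 1789 and 2916 in mutants 1 to 4. Sox9, the regulator of cartilage genes, followed at 353 to 554 TPM and Pax1, a factor of the sclerotome, at 305 to 433 TPM. Foxa1 and Foxa2, which act with Brachyury in the embryonic notochord, were at medians of 5.83 and 4.31 TPM, and Shh and Noto were below 1 TPM in all 7 libraries. Hox genes of the posterior body were present, 17 of 18 at 1 TPM or more in all libraries, with Hoxd8 and Hoxd9 highest (medians 87.3 and 79.9 TPM) and Hoxa13 at 36.8 TPM.

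Car3 (carbonic anhydrase 3) was the highest gene of the notochordal list, at 8957, 9402 and 9947 TPM in the wild-type mice and at 9247, 9402, 3696 and 7895 in mutants 1 to 4. Mutant 3 was the low library there. The whole list summed to 9881 TPM in mutant 3 and to 16004 to 18176 in the other 6. Car3 had a mean of 8364 TPM within a mean sum of 16272. Of the 17 genes listed, 10 reached 1 TPM in all libraries, a share near that of all nuclear coding genes (57.5%). Of these 10, 8 were lowest in mutant 3, where 20.5% of all such coding genes were lowest. Vim, the intermediate filament vimentin, was at 2585 TPM there against 4075 to 6181, while Col2a1 and Chil1 were highest there. The share of each disc compartment in the dissected tissue was not measured.

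**Figure D4:**
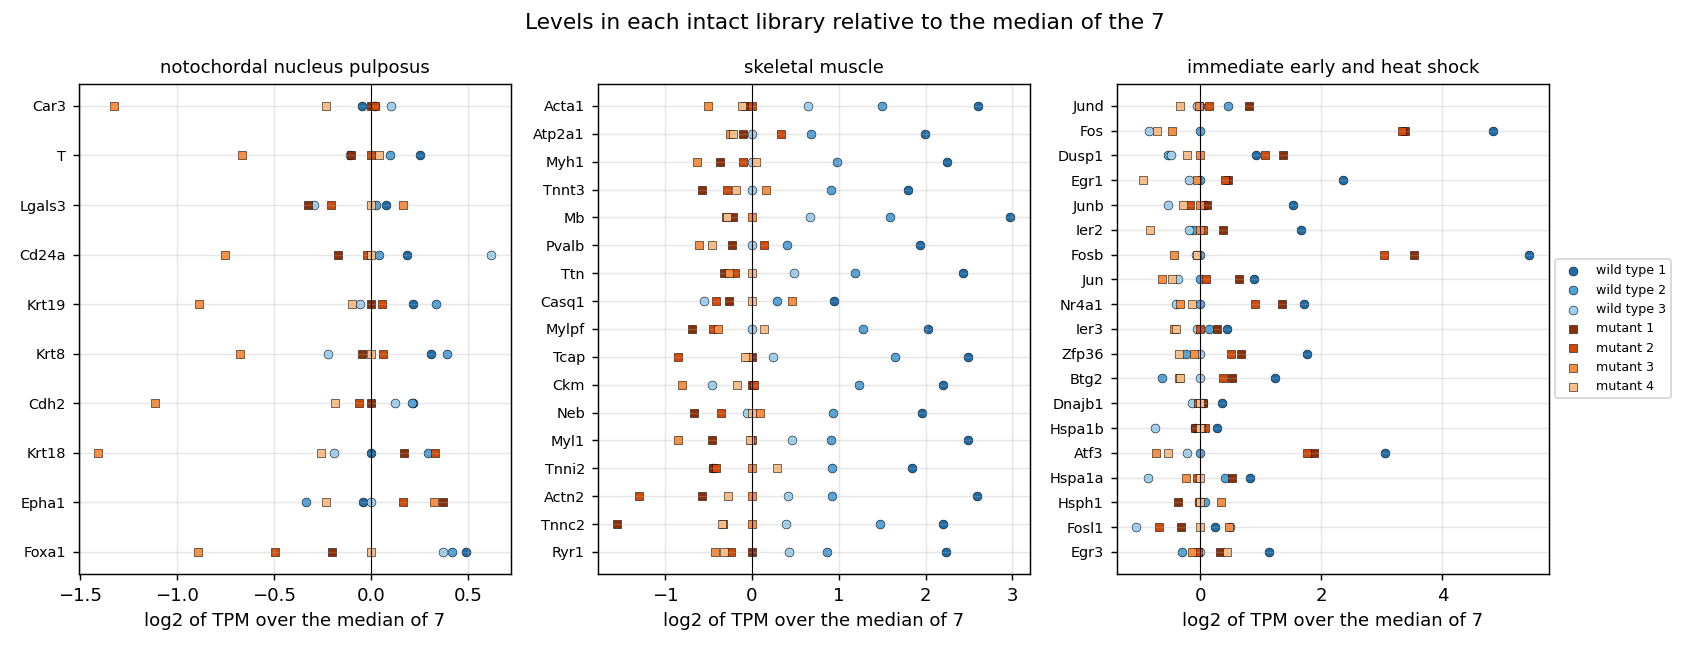
Level in each intact library as log2 of TPM over the median of the 7, for genes of 3 lists at 1 TPM or more in all 7 libraries. Wild type 1 is to the right for each muscle gene, mutant 3 to the left for 8 of 10 notochordal genes, and Fos splits wild type 1 and mutants 1 and 2 from the rest.

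Marker sums of other tissues were lower and uneven. The highest was the synovial lining list at 1360 to 2618 TPM, of which Prg4, also made in cartilage, made up most (mean 1748 of 1979 TPM). Smooth muscle and pericyte markers summed to 148 to 268 TPM. Skeletal muscle markers summed to 1323 TPM in intact wild-type mouse 1, 599 in mouse 2 and 233 to 324 in the other 5, and all 17 muscle genes at 1 TPM or more in all libraries were highest in mouse 1 (17.8% of all such genes were). Acta1, skeletal actin, was at 362 TPM there against 41.9 to 168. Erythroid and adipocyte markers were also highest there, at 729 and 92.0 TPM, against 68.2 to 376 and 13.9 to 30.9. The matrix share was lowest in the same library; whether the 2 are linked was not tested. Without it the mean muscle sum fell from 462 to 318 TPM and the mean adipocyte sum from 30.2 to 19.9 TPM.

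Of the remaining cell types, macrophage markers summed to 166 to 285 TPM, led by Csf1r and Cd68. Endothelial markers summed to 26.2 to 48.9, neutrophil to 5.97 to 18.8, neuron to 8.30 to 12.03 and lymphocyte to 2.41 to 5.23 TPM. Cd3d, Cd3e, Ly6g, Mpo, Nefl and Nefm were at 0 in all 7 libraries. Bone lists rested on genes shared with other tissues: Col1a1 made up most of the osteoblast sum, and Bglap2 was at 0 throughout. Of the osteoclast markers only Ctsk, a protease also made by fibroblasts, reached 1 TPM in all libraries. Krt5, the keratin of basal epidermis, was at 0 although Dsp and Sbsn were at medians of 174 and 137 TPM. Proliferation genes were low, with Mki67 at 2.53 to 4.28 TPM.

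Immediate early genes, which respond within minutes to many stimuli, were uneven. Fos was at 1079 TPM in intact wild-type mouse 1, at 393 and 381 in intact mutants 1 and 2, and at 20.9 to 37.8 in the other 4. Egr1 was at 695 TPM in wild-type mouse 1 against 70.4 to 185. The list of 20 immediate early and heat shock genes summed to 888 to 3915 TPM. Of its 19 genes at 1 TPM or more in all libraries, 15 were highest in wild-type mouse 1, where 17.8% of all such coding genes were highest. Among the 15 were the heat shock genes Hspa1a, Dnajb1 and Hspa1b. The latter 2 were only 0.356 and 0.285 log2 units above the median of the 7 libraries. Hsph1, also a listed heat shock gene, was highest in mutant 3. Mutants 1 and 2 share a library name prefix that mutants 3 and 4 do not have. Whether the naming and the levels are linked was not tested.

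Among the 200 highest nuclear coding genes, the CV over the 7 libraries had a median of 14.4%, and 146 genes were below 20%. The steadiest were Cd81 (2.52%), Lamp1, Ftl1, Cd109 and Smoc2, the first being a tetraspanin at 687 to 736 TPM. The most uneven was Gm10800 (114%). Tmsb4x, an actin-binding thymosin, was at 619 to 775 TPM in the wild-type mice and 260 to 349 in the mutants, a description of a gene picked for its spread. Gas1, Slc12a2, Lyst, Gsn, Wnk1 and Lbh completed the 8 most uneven. Mutant 3 was lowest for Tmsb4x, Gas1, Slc12a2, Lyst and Wnk1 and highest for Gm10800, Gsn and Lbh, an extreme for all 8. Of all nuclear coding genes at 1 TPM or more in all libraries, 20.5% were lowest in mutant 3, and a similar share were highest there. The 8 were picked for their spread over these same libraries, which favours a library that often lies at an extreme. The count therefore describes these 8 genes only.

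S100b, a calcium-binding protein of chondrocytes and Schwann cells, was singled out after its values were seen. It was at 262, 293 and 279 TPM in the wild-type mice, at 115, 126 and 169 in mutants 1 to 3 and at 0.418 in mutant 4. It was the only nuclear coding gene with a median of 20 TPM or more in the other 6 libraries that fell below 5% of that median in mutant 4, of 7121 examined. Dip2a, which overlaps S100b on chromosome 10 in the opposite orientation, was at 28.4% of the median of the other 6 there, and the 8 neighbours within 300 kb with a mean of 5 TPM or more ranged from 28.4% to 124%. In the injured discs S100b was at 0.582 and 1.24 TPM in mutants 1 and 3, and at 56.7 to 379 in the other 7.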

How the data were processed

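RNA of 7 intact and 9 injured libraries had been extracted with Trizol, depleted of ribosomal RNA with FastSelect and prepared with NEBNext Ultra II, per the labels' protocols; the molecule field reads polyA RNA instead. The authors deposited 1 table of TPM values per gene and mouse. The build GRCm38 and bcl2fastq 2.20 stand in the submitters' processing notes; aligner, counter and use of strand are not given in the sources used here. Groups came from the titles.

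Biotypes, positions, exon lengths and the sequences of Rn7sk and Gm23935 came from GENCODE M21 (49056 of 49315 identifiers found). Depth was implied from the step size of low values: 94.1% to 94.5% of those under 20 implied reads fell within 0.05 of a whole number. Genes were assigned to matrix, mitochondrial, ribosomal protein and non-coding classes, and shares of TPM compared by exact two-sided permutation tests (scipy 1.17.1), Benjamini-Hochberg adjusted over 8 tests, threshold 0.05. The code was tested on simulated data. All else is description. Same-numbered mice are different animals, so no pairing was used. The text names the 30 highest coding and 15 highest non-coding genes and draws its other names from the mitochondrial genes, the 6 highest and all-zero members of lists, the 8 most and 5 least variable of the 200 highest, markers and Adam8. The members and lists were chosen with earlier results of these data known. Whether the libraries of a group came from separate litters is not stated, so p-values measure the spread between these mice. Alternatives are in the closing section.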

Additional observations from a re-analysis of the deposited data

Results flagged for a closer look

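Of 83 shares, marker sums and named genes, 10 had 1 library far from the other 6, its gap to the nearest of them exceeding the 95% critical value of Dixon's test; chance flags about 1 in 20 groups, and these measures share genes. In intact wild-type mouse 1 the matrix share was low at 7.08%, and the sums of skeletal muscle (1323 TPM), endothelial (48.9 TPM) and adipocyte (92.0 TPM) markers were high. In intact mutant 3 the notochordal sum (9881 TPM) and Car3 (3696 TPM) were low and Col6a1 (2515 TPM) was high. In intact mutant 4 the Schwann cell sum was low at 369 TPM, the other 6 lying between 571 and 671. S100b, a member of that list, was at 0.418 TPM there and at 115 to 293 in the other 6, so this flag includes its low value. In intact wild-type mouse 3 mt-Nd6 (6725 TPM) and mt-Cytb (7781 TPM) were high.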

How the results depend on the processing

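The ribosomal protein difference between intact and injured discs kept its call without each of the 16 libraries in turn (0.557 to 0.702 points), and did not pass with mutants only (0.704) or wild type only (0.568), where fewer mice were tested. The mitochondrial difference ranged from -1.46 to -1.13 points with 1 library left out. It lost its call by exon-length weighting (-0.320) and, with fewer mice, in mutants only (-0.850). With wild type only it was larger (-1.80), but 3 against 4 mice cannot give an exact p under 0.0571, which it reached. Its call was kept by permuting within genotype (exact permutation adjusted p = 0.0127), without Rn7sk, without genes under 200 bases and as log2 share. With same-numbered mice as a replicate block the mitochondrial and ribosomal protein differences were -1.36 and 0.666 points. Each had the smallest exact sign-flip p that 7 pairs allow (0.0156), which adjusted to 0.0625. Deviations of same-numbered mice correlated at -0.224 to 0.217 over 7 intact and injured pairs, and at -0.229 to -0.0497 over 3 pairs of intact mutants and wild type. Of the 7 pairs 3 were best with their own number, all of them mutants (2, 3 and 4). Same-numbered mice are different animals, and whether the numbers carry another structure was not tested. Differences that had not passed changed sign: matrix against injured as log2 share (0.028), in the block (0.400), in mutants (0.0982) and by leaving out 1 library (-0.532 to 0.257); non-coding in wild type (0.195) and by leaving out 1 library (-0.323 to 0.173); between genotypes, non-coding with A8-named mutants (0.157) or 1 library left out (-0.614 to 0.106), and mitochondrial with 1 left out (-0.696 to 0.215). The matrix difference from injured discs kept its sign by exon-length weighting but was -3.55 points (exact permutation adjusted p = 0.0671), against -0.0478 in the main test. The causes of these changes were not tested.

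The mean shares depend on the weight of a gene: by exon length, matrix rose to 10.5%, while mitochondrial fell to 1.51%, ribosomal protein to 1.19% and non-coding to 6.70%, and the 10 highest genes held 10.8% in place of 15.3%. Over nuclear coding genes, matrix held 11.3%, ribosomal protein 3.77% and the 10 highest 10.7%. Without Rn7sk non-coding held 13.9% and the 10 highest 12.6%; without genes under 200 bases non-coding held 13.7%. Without any 1 library, 29 or 30 of the 30 highest coding genes were kept. With intact wild type only it was 28 and with intact mutants only 30. By exon-length weighting only 20 of the 30 were kept, so membership of this list depends on the weight of a gene. Without wild type 1, chosen after seeing the data, the mean adipocyte sum fell from 30.2 to 19.9 TPM; no other marker sum moved by over 1.5 times without it or mutant 3. Depth limits genes near 1 TPM.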
